A study of Mus musculus with 10 samples.

Results

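The genes described here are those of the mitochondrial genome in B16-F10 mouse melanoma cells, taken as every entry of the gene table whose symbol begins with mt-. That rule found 37 of 77175 entries, of which 13 code for proteins, 2 for ribosomal RNAs (rRNAs) and 22 for transfer RNAs (tRNAs). Bulk RNA sequencing compared the parental line, called WT here, with B16-F10-OVA, called OVA, which carries a lentiviral vector, pLV[Exp]-Neo, that drives the model antigen ovalbumin from the EF1A promoter. Each line was sampled untreated (n = 2) and with the cytokine interferon gamma (IFN-γ), given at 50 ng/ml for 24 h (n = 3), to ask whether the lines respond differently. All 10 libraries were made from poly-A selected RNA, and their total counts ran from 17728722 to 19642533. No label says whether OVA was 1 clone or whether replicates were separate cultures, so p-values measure the spread between these libraries, which may be technical. All 7 melanocyte markers had counts, with summed levels of 23256 to 24467 CPM (counts scaled to a common library size). The 5 T cell markers summed to at most 0.113 CPM, with Ptprc and Cd3e at 0. Markers of macrophages summed to 2.17 to 4.99 CPM, of fibroblasts to 1.73 to 4.46 and of epithelial cells to 0.551 to 1.58, the last with Epcam and Krt14 at 0. The extraction text mentions tissue, but every sample is otherwise labelled as a cell line and is read here as cultured cells.

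Mitochondrial DNA codes for core subunits of respiratory complexes I, III and IV and of the ATP synthase (complex V), and for the rRNAs and tRNAs that translate them. Each strand is transcribed as a long precursor by the nuclear-encoded polymerase Polrmt, and the precursor is cut mainly at its tRNAs. Levels of neighbouring mRNAs therefore depend on how long each is kept as well as on how often it is made. Most of these mRNAs receive a short poly-A tail, which is what poly-A selection captures, while tRNAs and rRNAs are generally captured poorly by it. In human cells the ND6 mRNA is known as an exception that lacks the tail.

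The genes lie close together and some share bases, which limits what a read can be assigned to. In the GENCODE M21 annotation, mt-Atp8 and mt-Atp6 share 43 bases on 1 strand, mt-Nd4l and mt-Nd4 share 7, and mt-Nd5 and mt-Nd6 share 14 on opposite strands. The sequences below, from the GENCODE M21 transcripts (GRCm38), are shown because they display that packing. The first has in capitals the bases that also begin mt-Atp6. The next 3 are the last 30 bases of genes whose final codon holds a T alone (capital), so that the stop codon is completed by the poly-A tail.
mt-Atp8: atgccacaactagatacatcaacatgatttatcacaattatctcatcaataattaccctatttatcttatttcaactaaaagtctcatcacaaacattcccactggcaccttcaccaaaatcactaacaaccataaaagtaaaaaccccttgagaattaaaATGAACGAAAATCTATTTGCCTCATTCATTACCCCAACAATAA
mt-Co3 end: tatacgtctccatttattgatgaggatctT
mt-Nd4 end: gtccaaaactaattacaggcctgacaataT
mt-Cytb end: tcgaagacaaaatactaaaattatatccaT

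Part of the mitochondrial genome also has near-identical copies in the nuclear genome, and some of the deposited counts stood on those copies. A search of the GENCODE M21 transcripts found 7 nuclear copies of at least 99% identity, each on chromosome 1, and 4 of them held 260975 counts in all. Atp6-ps matched 678 of the 681 bases of mt-Atp6 with no difference and held 177610 counts. Gm28439 matched 876 of the 1378 bases of mt-Nd4 with no difference and held 35911. Gm29216 matched 483 bases of mt-Co1 with the single substitution A1066T, counted from the first base of mt-Co1, and held 32269. The copies of mt-Co2, mt-Co3 and mt-Nd4l (Gm28661, Gm28437 and Gm10222) held 0 counts.

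The starkest case was mt-Nd3, a complex I gene. It had 0 counts in 9 libraries and 84 in OVA IFN-γ replicate 1, while its nuclear copy Gm28438 held 1216 to 1737 counts in every library. Over their aligned length the pair differ at 1 base, T3C counted from the first base of mt-Nd3, shown as a capital in the first 30 bases of each.
mt-Nd3 start: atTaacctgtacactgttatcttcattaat
Gm28438 start: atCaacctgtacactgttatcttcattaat
No source used here says how reads that match both places were handled. The responses and line differences of mt-Nd3, mt-Atp6, mt-Nd4 and mt-Co1 are therefore uncertain and were also computed with the copy added, an alternative chosen after seeing the data. mt-Co2, mt-Co3 and mt-Nd4l have copies identical over 681 of 684, 783 of 784 and 294 of 297 bases. Those copies held 0 counts, so adding them changes no value. Whether reads of these 3 genes were placed correctly cannot be told, and their values are uncertain too.

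For mt-Atp6, a subunit of the proton channel of ATP synthase, the split between gene and copy differed between groups. Atp6-ps took 28.1% and 31.0% of the joint counts in the untreated WT libraries and 24.1%, 18.9% and 17.0% in the treated WT libraries. It took 23.5% and 23.3% in untreated OVA and 34.7%, 31.3% and 25.9% in treated OVA. The copy's share was thus lower in each treated WT library than in either untreated one, and higher in each treated OVA library than in either untreated one. The joint counts varied less from library to library than the share did, as the plot of counts on genes and copies shows. For mt-Nd4 the copy's share was 6.61% to 13.5% over the 10 libraries, and for mt-Co1 it was 1.01% to 2.68%.

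**Figure D1:**
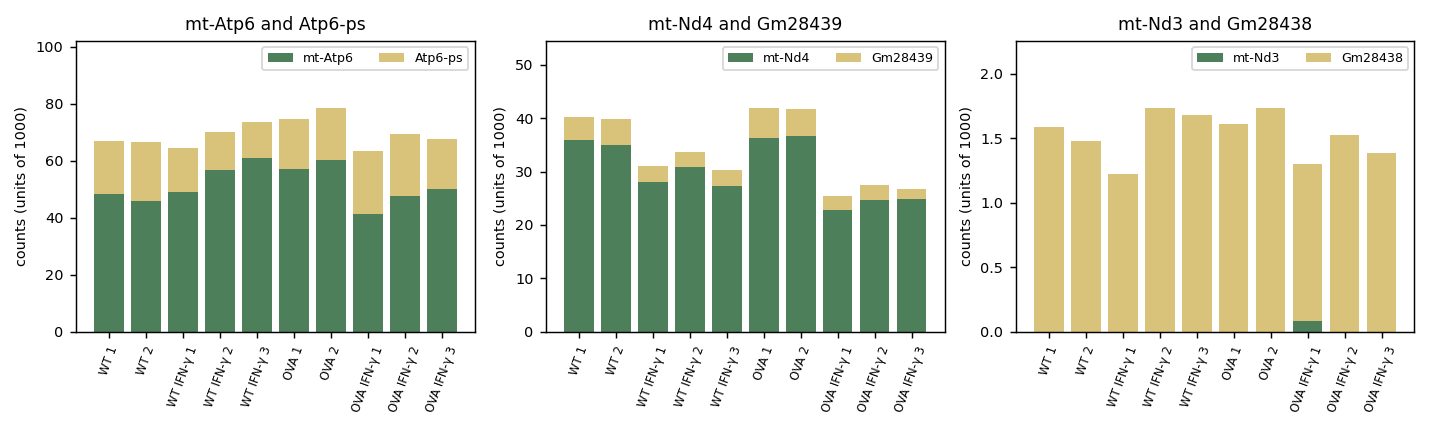
Deposited counts, in units of 1000, of mt-Atp6, mt-Nd4 and mt-Nd3 (green) stacked with the counts of their near-identical nuclear copies (yellow), 1 bar per library. Nearly all counts of the mt-Nd3 pair stand on Gm28438, and the Atp6-ps part ranges from 17.0% to 34.7% of its bar.

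The 3 classes of mitochondrial RNA contributed very unequal numbers of counts. The 13 protein genes held 5209678 counts over the 10 libraries, the 2 rRNA genes 271750 and the 22 tRNA genes 109. As deposited, the protein genes took 2.87% ± 0.0092 (SD, n = 2) of all counts in untreated WT and 2.75% ± 0.028 (n = 3) after IFN-γ. In OVA they took 3.17% ± 0.036 (n = 2) untreated and 2.68% ± 0.12 (n = 3) after IFN-γ. In neither line did treated and untreated libraries overlap. The rRNA genes took 0.135% ± 0.029 and 0.161% ± 0.0049 in untreated and treated WT, and 0.160% ± 0.025 and 0.134% ± 0.012 in OVA, differences close to the spread between the untreated libraries.

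Of the 22 tRNA genes, 13 had at least 1 count and 9 had none in any library. Only mt-Ts1, a serine tRNA, reached 20 counts in sum, with 61. It had 2 and 4 counts in untreated WT, 6, 9 and 4 in treated WT, 13 and 3 in untreated OVA, and 7, 8 and 5 in treated OVA. The groups overlapped in both lines, and the remaining 21 tRNA genes held 48 counts together. The gene lies next to mt-Co1 on the opposite strand and shares its last 3 bases (capitals) with the end of mt-Co1, the most abundant member, which is why both are shown.
mt-Ts1: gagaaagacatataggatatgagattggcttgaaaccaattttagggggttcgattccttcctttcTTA
mt-Co1 end: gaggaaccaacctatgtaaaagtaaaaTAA
The 8 tRNA genes on the light strand held 90 counts and the 14 on the heavy strand held 19. No label says that the libraries keep strand, so reads from opposite strands cannot be told apart.

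Levels were compared between genes per kilobase of gene, with the nuclear copies added. On that scale mt-Co1, the catalytic subunit of cytochrome c oxidase (complex IV), was the highest protein gene at 6009 to 6893 CPM per kilobase. Next came mt-Atp6 (5126 to 6235), mt-Co2 (3768 to 4803) and mt-Co3 (2753 to 3475), the last a pair of further complex IV subunits. They were followed by mt-Atp8 (2653 to 3393) and mt-Cytb (2209 to 3755), the cytochrome b of complex III. The complex I genes were all lower, from mt-Nd1 (1401 to 1920), mt-Nd4 (1030 to 1667), mt-Nd5 (937 to 1420), mt-Nd6 (691 to 1034) and mt-Nd2 (734 to 943) to mt-Nd4l (441 to 750) and mt-Nd3 (190 to 270).

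The ranges of neighbours in that order overlapped except between mt-Atp6 and mt-Co2, mt-Co2 and mt-Co3, mt-Cytb and mt-Nd1, and mt-Nd4l and mt-Nd3. Without the copies mt-Atp6 ranked behind mt-Co2. Ranks of genes with near-identical copies stay uncertain with the copies added, since how reads matching both places were handled is not known. That covers mt-Atp6, mt-Co2, mt-Co3, mt-Nd4l and mt-Nd3, and parts of mt-Co1 and mt-Nd4. The level of mt-Nd6 is uncertain too, because strand is not known and the human ND6 mRNA lacks the tail. The rRNA genes stood at 556 to 888 CPM per kilobase for mt-Rnr2 and 266 to 433 for mt-Rnr1. Fragment length was not modelled, so the levels of the shortest genes (mt-Atp8 with 204 bases and mt-Nd4l with 297) are less certain. These genes overlap mt-Atp6 and mt-Nd4 on the same strand, and whether the RNA level differs within each pair was not tested.

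**Figure D2:**
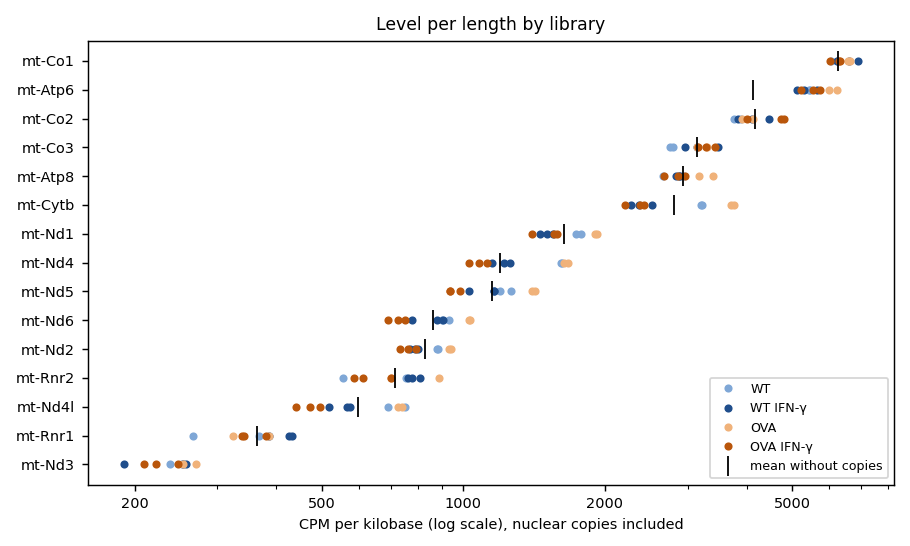
Level per length of the 15 protein and rRNA genes in CPM per kilobase (log axis), nuclear copies included, with 1 point per library coloured by group and a black tick for the mean without copies. The complex IV and V genes lie to the right of all complex I genes, and the tick of mt-Atp6 lies well to the left of its points.

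After 24 h of IFN-γ the mitochondrial mRNAs did not move as 1 block, and the size of the change differed between the complexes. Cytochrome b (mt-Cytb) fell in both lines, as did 5 of the 6 tested complex I genes in WT and all 6 in OVA. Of the 3 complex IV genes, 2 rose in WT, and 1 rose and 1 fell in OVA. Of the 14 members with enough counts to be tested (12 protein and 2 rRNA genes), 6 fell and 3 rose in WT. That compares with 19.7% of all 15526 tested genes called lower and 24.5% called higher (44.2% either way). In OVA 11 of 14 fell and 1 rose, against 22.9% of all tested genes called lower and 25.9% called higher (48.8% either way). The median log2 change of the 14 was -0.03 in WT and -0.31 in OVA, beside 0.01 and 0.0018 over all tested genes. For the 12 protein genes alone it was -0.12 in WT and -0.32 in OVA. For the 2 rRNA genes it was 0.32 and -0.17, so the WT value of the 14 pools opposite directions. Of the protein genes, 6 fell and 2 rose in WT, and 10 fell and 1 rose in OVA. Overlapping neighbours (mt-Nd4l with mt-Nd4, mt-Atp8 with mt-Atp6) may not be separate observations, so these are not counts of independent members. In bulk RNA, fewer cells with a transcript and less of it per cell cannot be told apart. Calls are edgeR's quasi-likelihood test with Benjamini-Hochberg adjustment at 0.05.

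**Figure D3:**
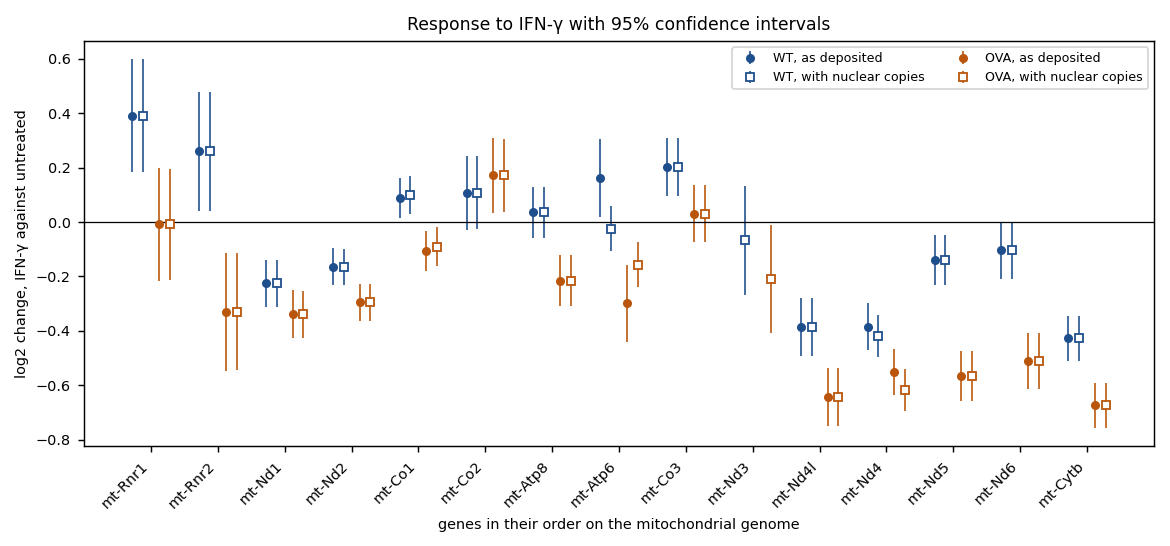
Log2 change with IFN-γ (vertical axis) and its 95% confidence interval for each gene in genome order, in WT (blue) and OVA (orange), as deposited (filled circles) and with near-identical nuclear copies added (open squares). The changes run from -0.67 for mt-Cytb in OVA to 0.39 for mt-Rnr1 in WT, and adding the copies shifts mt-Atp6 most.

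mt-Cytb, the only mitochondrially encoded subunit of complex III, fell most in each line among the tested members. Its level was 3670 and 3662 CPM in untreated WT and 2601, 2697 and 2883 CPM after IFN-γ. In OVA it was 4230 and 4296 CPM untreated and 2527, 2776 and 2718 CPM after IFN-γ. Every treated library lay below every untreated one. On the log2 scale it fell by 0.43 in WT (SE 0.039, adjusted p = 1.15e-07) and by 0.67 in OVA (SE 0.039, adjusted p = 2.49e-10).

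Complex I takes electrons from NADH, and its mitochondrially encoded subunits form the membrane arm. Of its 6 tested genes, 5 fell in WT and 6 in OVA, with median log2 changes of -0.19 and -0.53. mt-Nd4 and mt-Nd4l, which overlap by 7 bases on 1 strand, went down nearly in step and may not be separate observations. mt-Nd4 stood at 1982 and 1961 CPM in untreated WT and at 1514, 1588 and 1429 CPM after IFN-γ, with 1986 and 1979 against 1277, 1391 and 1391 CPM in OVA. It fell by 0.38 in WT (adjusted p = 5.65e-07) and by 0.55 in OVA (adjusted p = 4.98e-09) on the log2 scale, or by 0.42 and 0.62 with its copy. mt-Nd4l, the lowest protein gene tested as deposited, stood at 223 and 206 CPM in untreated WT and at 171, 168 and 154 CPM after IFN-γ. In OVA it stood at 215 and 219 CPM untreated and at 131, 147 and 140 CPM after IFN-γ. Treated and untreated libraries did not overlap for either gene in either line. The ratio of mt-Nd4 with its copy to mt-Nd4l was 9.85 to 10.9 in all 10 libraries.

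Of the other complex I genes, mt-Nd1 fell by 0.23 in WT and 0.34 in OVA on the log2 scale, and mt-Nd2 by 0.16 and 0.30. Both calls held with each library left out in turn. mt-Nd3, read with its copy, stood at 85.2 ± 3.4 CPM in untreated and 81.2 ± 13 in treated WT, and at 91.0 ± 4.0 and 78.8 ± 6.7 in OVA. Its log2 changes of -0.07 in WT and -0.21 in OVA did not pass the test (adjusted p = 0.596 and 0.0771), although the OVA value passed when WT IFN-γ replicate 1 or 3 or OVA IFN-γ replicate 2 was left out. Without the copy mt-Nd3 passed a filter of 20 counts, and its OVA call in that fit rested on the 84 counts of 1 library. In the same fit mt-Ts1 did not pass the test, with log2 changes of 0.98 in WT and -0.21 in OVA (adjusted p = 0.35 and 0.832).

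The complex IV genes code for the catalytic core of cytochrome c oxidase. As deposited, their log2 changes ran from -0.11 (mt-Co1 in OVA) to 0.20 (mt-Co3 in WT). mt-Co1 stood at 9207 and 9481 CPM in untreated WT and at 10468, 9945 and 9416 CPM after IFN-γ. In OVA it stood at 10049 and 10153 CPM untreated and at 9073, 9595 and 9461 CPM after IFN-γ. As deposited, the groups overlapped in WT and not in OVA. Its rise in WT was 0.09 (log2, adjusted p = 0.045) and was lost in 9 of 10 fits that left out a library. Its fall in OVA was 0.11 (adjusted p = 0.0164) and was lost without OVA untreated replicate 2 (adjusted p = 0.106). With Gm29216 added, mt-Co1 stood at 9358 and 9605 CPM in untreated WT and at 10649, 10182 and 9634 CPM after IFN-γ. In OVA these levels were 10152 and 10259 CPM untreated and 9284, 9761 and 9721 CPM after IFN-γ, and the groups overlapped in neither line. The log2 changes with the copy were 0.10 in WT (adjusted p = 0.0232) and -0.09 in OVA (adjusted p = 0.0332). The WT call with the copy was lost without WT untreated replicate 1, WT IFN-γ replicate 1 or 2 or OVA untreated replicate 2 (adjusted p up to 0.179). The OVA call with the copy was lost without either untreated OVA library or OVA IFN-γ replicate 1 (adjusted p up to 0.114).

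mt-Co3 stood at 2186 and 2159 CPM in untreated WT and at 2315, 2456 and 2725 CPM after IFN-γ, with no overlap. It rose by 0.20 on the log2 scale in WT (SE 0.050, adjusted p = 0.00339), a call kept with each library left out, and had a change of 0.03 in OVA (adjusted p = 0.650). mt-Co2 stood at 2671 and 2820 CPM in untreated OVA and at 2743, 3285 and 3246 CPM after IFN-γ. These groups overlapped, and its rise of 0.17 in OVA (adjusted p = 0.0367) was lost when OVA untreated replicate 1 or 2 or OVA IFN-γ replicate 2 or 3 was left out, and with DESeq2 (adjusted p = 0.180). In WT its change was 0.11 (adjusted p = 0.190).

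The ATP synthase genes depended on how the copies were treated. mt-Atp8 fell by 0.22 in OVA on the log2 scale (adjusted p = 0.000683) and had a change of 0.04 in WT (adjusted p = 0.561). The search of annotated transcripts found no near-identical copy of mt-Atp8, and the rest of the nuclear genome was not searched. The 43 bases that mt-Atp8 shares with mt-Atp6 lie within the match of Atp6-ps. mt-Atp6 as deposited stood at 2663 and 2565 CPM in untreated WT and at 2648, 2921 and 3198 CPM after IFN-γ. Its OVA levels were 3127 and 3257 CPM untreated and 2320, 2676 and 2790 CPM after IFN-γ. Its log2 changes were 0.16 in WT (adjusted p = 0.0637) and -0.30 in OVA (adjusted p = 0.00135). With Atp6-ps added they became -0.02 (adjusted p = 0.654) and -0.16 (adjusted p = 0.00294). The ratio of mt-Atp6 to its overlapping neighbour mt-Atp8 ranged from 4.25 to 5.53 over the libraries as deposited and from 5.96 to 6.84 with the copy.

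The makeup of the protein genes restates the same counts in a form in which library scaling cancels. The shares of a library sum to a fixed whole, so a fall in any complex raises the shares of the others. A higher share of complex IV is therefore not by itself a rise of its genes. With copies added, complex IV held 47.5% ± 0.0045 (SD, n = 2) of mitochondrial protein-gene counts in untreated WT and 53.2% ± 0.54 (n = 3) after IFN-γ. In OVA it held 46.8% ± 0.15 and 53.9% ± 0.28. Complex I went from 26.1% ± 0.0054 to 22.8% ± 0.78 in WT and from 25.7% ± 0.34 to 21.4% ± 0.23 in OVA. Complex III went from 12.2% ± 0.096 to 9.37% ± 0.47 in WT and from 12.9% ± 0.042 to 9.45% ± 0.056 in OVA. For these 3 complexes the treated and untreated libraries did not overlap in either line. Complex V held 14.2% ± 0.086 and 14.6% ± 0.58 in WT, where the libraries overlapped, and 14.6% ± 0.23 and 15.2% ± 0.093 in OVA, where they did not. As deposited, without the copies, the overlap was the reverse and the OVA means lay in the opposite order. Complex V then held 11.2% ± 0.14 against 12.6% ± 0.90 in WT, with no overlap, and 12.2% ± 0.21 against 11.9% ± 0.52 in OVA, with overlap. These shares are a description of the members and carry no test.

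**Figure D4:**
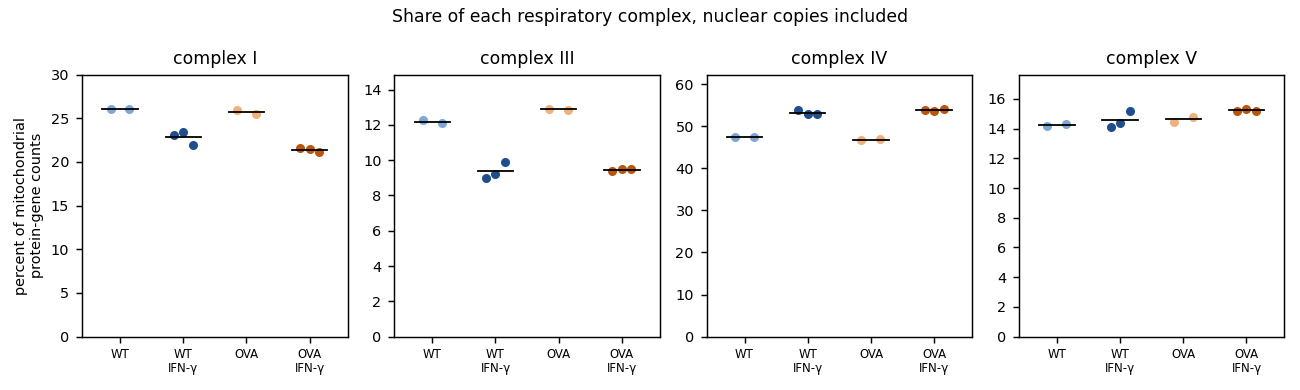
Percent of mitochondrial protein-gene counts held by each complex, nuclear copies included, with 1 point per library, a line at the group mean and each axis starting at 0. Complex IV lies between 46.7% and 47.5% in the untreated libraries and between 52.9% and 54.2% in the treated ones.

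The rRNA genes code for the RNAs of the small (mt-Rnr1) and large (mt-Rnr2) mitochondrial ribosome subunits. mt-Rnr1 stood at 254 and 351 CPM in untreated WT and at 413, 406 and 369 CPM after IFN-γ. OVA libraries held it at 310 and 369 CPM untreated and at 363, 326 and 323 CPM after IFN-γ. The WT groups did not overlap and the OVA groups did. It rose by 0.39 on the log2 scale in WT (SE 0.098, adjusted p = 0.00379), a call lost without WT untreated replicate 1 (adjusted p = 0.120), and had a change of -0.0088 in OVA (adjusted p = 0.951).

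mt-Rnr2 stood at 879 and 1193 CPM in untreated WT and at 1208, 1281 and 1230 CPM after IFN-γ. OVA libraries held it at 1111 and 1404 CPM untreated and at 1108, 927 and 967 CPM after IFN-γ. Its change in WT was 0.26 (adjusted p = 0.0517), and ran from 0.06 to 0.50 with a library left out. It passed when WT untreated replicate 2, OVA untreated replicate 1 or OVA untreated replicate 2 was left out, and in 5 of 10 other fits, among them limma-voom and the fit of the WT groups alone. It fell by 0.33 in OVA (adjusted p = 0.0132), a call lost without OVA untreated replicate 2 (adjusted p = 0.332) and with DESeq2 (adjusted p = 0.0899). The untreated replicates differed from each other about as much as the groups did, and how poly-A selection bears on these RNAs was not tested.

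Whether the lines responded differently was tested directly as the OVA response minus the WT response. The difference was below 0 for 13 of 14 members, with a median of -0.25 beside -0.01 over all tested genes. It passed the test for 2 of 14, mt-Nd5 and mt-Nd6, both lower, where 0.264% of all tested genes were called lower and 0.0773% higher (0.341% either way). These members share the libraries of each line and neighbouring genes share precursors, so their common direction is a description.

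mt-Nd5 codes for the subunit at the far end of the membrane arm of complex I. It stood at 2186 and 2299 CPM in untreated WT and at 2117, 2120 and 1871 CPM after IFN-γ. In OVA it stood at 2553 and 2590 CPM untreated and at 1709, 1793 and 1709 CPM after IFN-γ. The treated OVA libraries were the lowest of all and the untreated OVA libraries the highest. Its log2 change was -0.14 in WT (SE 0.044, adjusted p = 0.0155) and -0.57 in OVA (SE 0.043, adjusted p = 9.18e-09). The difference of responses was -0.43 (SE 0.062, 95% interval -0.56 to -0.30, adjusted p = 0.00312). It passed in each of the 10 fits that left out a library, with adjusted p of at most 0.0462. Leaving out WT untreated replicate 2 ended the WT call (adjusted p = 0.185).

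mt-Nd6 is the only protein gene on the light strand, and its coding sequence holds 28.1% G and 5.97% C. It stood at 468 and 485 CPM in untreated WT and at 456, 469 and 404 CPM after IFN-γ. In OVA it stood at 533 and 537 CPM untreated and at 377, 390 and 359 CPM after IFN-γ. The WT groups overlapped, whereas the OVA groups did not. It had a change of -0.10 in WT (adjusted p = 0.0973) and fell by 0.51 in OVA (SE 0.049, adjusted p = 1.62e-07). The difference of responses was -0.41 (SE 0.070, 95% interval -0.55 to -0.26, adjusted p = 0.0140). That call was lost without WT untreated replicate 1, OVA untreated replicate 1 or OVA untreated replicate 2, with adjusted p up to 0.0990.

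mt-Nd5 and mt-Nd6 adjoin on opposite strands, and their ratio was 4.52 to 4.82 in all 10 libraries. Without strand, reads of mt-Nd6 cannot be told apart from RNA of the other strand over the same bases, so the pair may not be separate observations. mt-Atp6 had a difference of -0.46 as deposited (adjusted p = 0.0509), which became -0.13 (adjusted p = 0.408) with Atp6-ps added. The 2 rRNA genes had differences of -0.40 for mt-Rnr1 and -0.59 for mt-Rnr2 that did not pass (adjusted p = 0.289 and 0.129), the 95% interval of the latter running from -0.90 to -0.28.

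**Figure D5:**
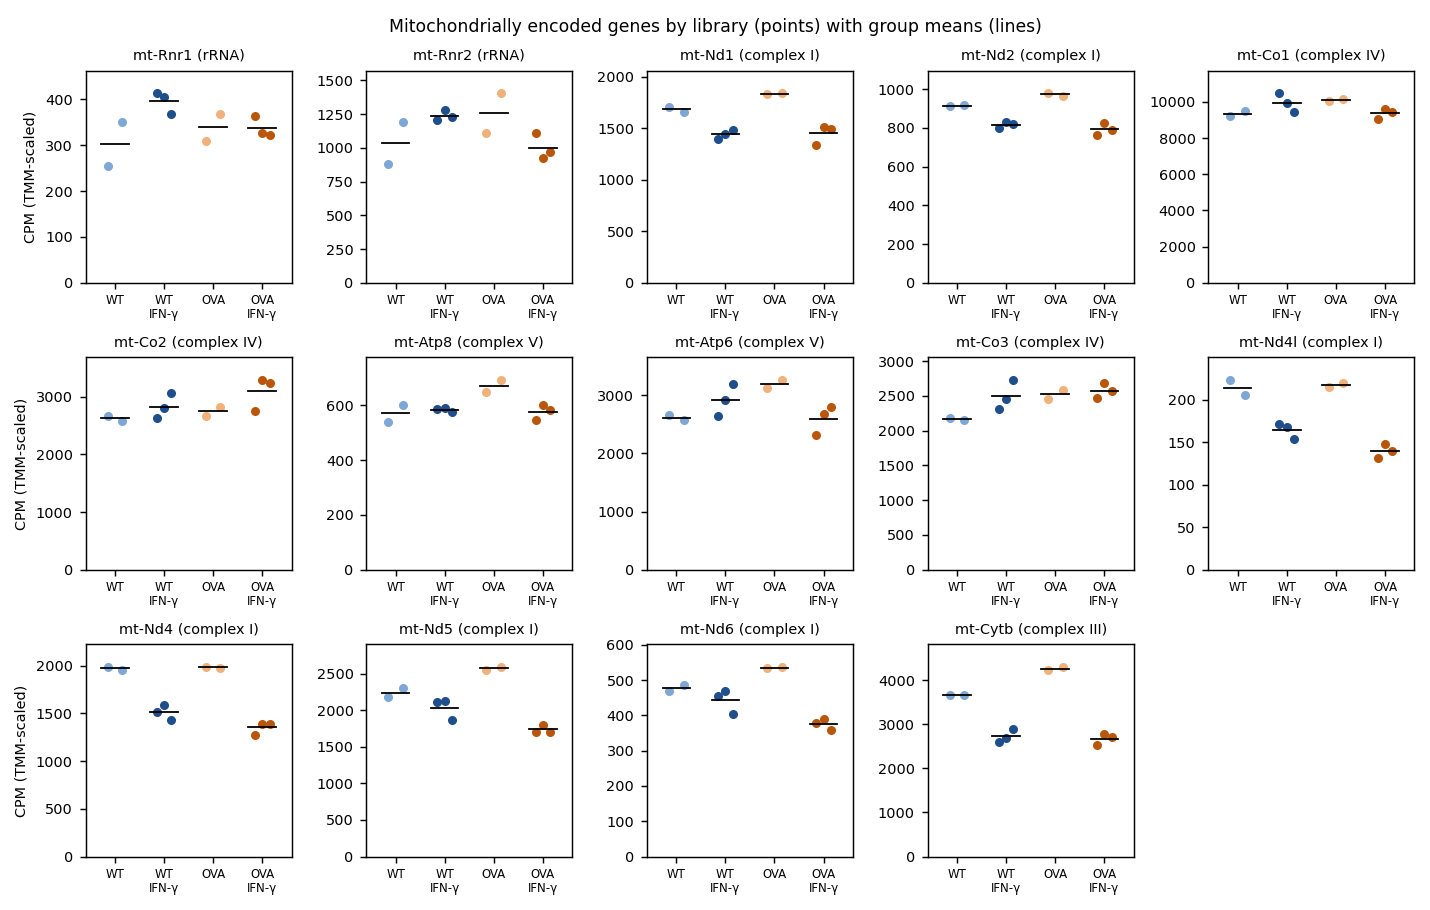
Level of each of the 14 tested members in CPM (TMM-scaled, axis from 0), with 1 point per library and a line at the group mean, as deposited. The treated OVA libraries lie lowest for mt-Nd4, mt-Nd4l, mt-Nd5 and mt-Nd6, and the treated libraries of both lines lie below all untreated ones for mt-Cytb.

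The comparisons of the lines use the same libraries as the responses and give the same values from another side. Untreated, 5 of 14 members were higher in OVA and none lower, against 2.98% and 2.55% of all tested genes (5.53% either way). They were mt-Atp8 (log2 difference 0.23), mt-Atp6 (0.29, or 0.17 with its copy), mt-Co3 (0.22), mt-Nd5 (0.20) and mt-Cytb (0.22). The median difference was 0.17 beside 0.0070 over all tested genes. With 2 libraries a group this rests on few samples. As deposited, no member was called without WT untreated replicate 1 or without OVA untreated replicate 2. With its copy, the call of mt-Atp6 (adjusted p = 0.0288) was lost without any 1 of the 4 untreated libraries (adjusted p up to 0.230).

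Under IFN-γ, 5 of 14 members were lower in OVA and none higher, against 7.99% and 6.36% of all tested genes (14.4% either way). mt-Nd6 was lower by 0.24 on the log2 scale, mt-Nd4l and mt-Nd5 each by 0.23, and these 3 calls held with each library left out. mt-Nd4 was lower by 0.16, a call lost without WT IFN-γ replicate 2 (adjusted p = 0.0503). With its copy the value was -0.17 (adjusted p = 0.00261), and that call held with each library left out. Of these complex I genes, mt-Nd5 had been called higher in untreated OVA, while untreated differences were 0.0081 for mt-Nd4 (0.03 with its copy), 0.02 for mt-Nd4l and 0.17 for mt-Nd6, none of which passed (adjusted p = 0.957, 0.737, 0.887 and 0.0863). mt-Rnr2 was lower by 0.31, a call lost in 4 fits that left out WT IFN-γ replicate 1 or 2 or OVA IFN-γ replicate 2 or 3, and with DESeq2 (adjusted p = 0.210). mt-Nd1, mt-Nd2 and mt-Cytb had differences of 0.01, -0.04 and -0.03 that did not pass. mt-Co1 did not pass in either comparison of the lines, with 0.11 untreated and -0.08 under IFN-γ both as deposited and with its copy (adjusted p = 0.107 and 0.0742 with the copy).

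Nuclear genes with roles in mitochondria were read from the same fit in 8 lists with 102 genes, of which 101 were tested (Calcoco2 had 2 counts, and Phb2 stands in 2 lists). The lists of genes that make, process and degrade mitochondrial RNA hold 11, 24 and 14 genes. The other lists cover DNA replication, regulators, abundant proteins, proteases and mitophagy. Of the 101 tested genes, 50 were called in WT and 63 in OVA, beside 44.2% and 48.8% of all tested genes. Each list's counts stand against 24.5% of all tested genes called higher and 19.7% called lower in WT, and 25.9% and 22.9% in OVA. Among 11 genes of mitochondrial transcription, 4 rose and 1 fell in WT, and 4 rose and 2 fell in OVA, with median log2 changes of 0.17 and 0.19. Tefm, the elongation factor, went from 9.13 ± 0.96 to 13.7 ± 0.84 CPM in WT and from 9.80 ± 0.53 to 15.5 ± 0.83 in OVA. Tfam, which packages mitochondrial DNA and starts transcription, rose by 0.17 in WT and 0.19 in OVA. Leaving out WT untreated replicate 2 ended the WT call of Tfam (adjusted p = 0.0564). Polrmt, the polymerase, had a change of -0.04 in WT (adjusted p = 0.625) and fell by 0.19 in OVA (adjusted p = 0.0230), lost without OVA untreated replicate 1 (adjusted p = 0.149) and with DESeq2 (adjusted p = 0.0572). Tfb2m, which opens the promoter with Tfam and Polrmt, fell by 0.35 in WT and 0.26 in OVA.

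Of 24 genes of mitochondrial RNA processing and modification, 10 rose and none fell in WT, where 24.5% of all tested genes were called higher and 19.7% lower. In OVA 13 rose and none fell, where those shares were 25.9% and 22.9%. Trmt10c, a subunit of the enzyme that cuts the 5′ end of tRNAs, rose by 0.48 in WT and 0.46 in OVA on the log2 scale. Nsun4 and Mrm3, which methylate mitochondrial rRNA, rose by 0.54 and 0.47 in WT and by 0.53 and 0.58 in OVA. Mtpap, the poly-A polymerase of mitochondria, rose by 0.31 in WT and 0.29 in OVA, the WT call being lost without WT untreated replicate 1 (adjusted p = 0.0637).

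Of 14 genes of mitochondrial RNA stability and decay, 5 rose and 2 fell in WT and 7 rose and 1 fell in OVA. Pnpt1, the polynucleotide phosphorylase of mitochondria and an interferon-induced gene, went from 53.1 ± 2.2 CPM (n = 2) to 135 ± 9.6 (n = 3) in WT and from 56.9 ± 1.6 to 147 ± 2.9 in OVA. Its log2 changes were 1.35 (SE 0.055, adjusted p = 1.72e-12) and 1.37 (adjusted p = 1.06e-12). Rexo2, which degrades short RNAs, rose by 0.65 in WT and 0.52 in OVA. The partners Lrpprc and Slirp, which bind and hold mitochondrial mRNAs, went opposite ways. Lrpprc fell by 0.17 in WT and 0.22 in OVA. Slirp rose by 0.33 in WT (lost without WT untreated replicate 1, adjusted p = 0.0531) and by 0.57 in OVA.

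Of 14 genes of mitochondrial DNA replication and nucleotide supply, 3 rose and 2 fell in WT and 5 rose and 2 fell in OVA. Cmpk2, a nucleotide kinase of mitochondria and an interferon-induced gene, went from 3.09 ± 0.62 to 165 ± 2.2 CPM in WT (log2 change 5.73) and from 4.08 ± 0.50 to 197 ± 1.3 CPM in OVA (5.59). Polg, the DNA polymerase, fell by 0.22 in WT and 0.29 in OVA. Among 9 nuclear regulators of mitochondrial gene expression, 1 rose and 5 fell in each line, beside 24.5% of all tested genes higher and 19.7% lower in WT and 25.9% and 22.9% in OVA. The coactivator Ppargc1a was the one that rose, by 0.33 in WT and 0.50 in OVA. The transcription factor Nrf1 fell by 0.25 and 0.44, and Esrra fell by 0.44 in WT and by 0.24 in OVA, the latter lost without OVA untreated replicate 2 (adjusted p = 0.0801).

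Abundant mitochondrial proteins of nuclear origin gave no common direction, with 6 of 15 higher and 4 lower in WT and 8 higher and 5 lower in OVA. The outer-membrane channel Vdac1 fell by 0.22 and 0.34 and the chaperone Hspa9 rose by 0.23 and 0.30. Among 7 mitochondrial quality proteases, 4 rose in WT and 5 in OVA, and none fell, beside the same shares of all tested genes (24.5% and 25.9% higher, 19.7% and 22.9% lower). Yme1l1, of the inner membrane, rose by 0.28 and 0.35.

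Of 8 tested mitophagy genes, 1 rose and 2 fell in WT and 3 rose and 2 fell in OVA. Bnip3, an outer-membrane receptor for the removal of mitochondria, stood at 132 ± 3.7 CPM in untreated and 127 ± 4.3 in treated WT, and at 84.9 ± 0.64 and 53.8 ± 1.0 in OVA. It was the only gene of the 101 that passed the test for the difference of responses (log2 -0.60, adjusted p = 6.75e-05), and it passed with each library left out. Between the lines 10 of the 101 genes were called untreated and 18 under IFN-γ, beside 5.53% and 14.4% of all tested genes.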

How the data were processed

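Each value deposited by the authors is a raw count of reads per gene. The submitters' processing notes name GRCm39 as the build, HISAT2 2.0.5 and featureCounts 1.6.0. Whether strand was used, how reads with several matches were treated and which annotation was counted is not given in the sources used here. The members and gene lists were chosen with earlier results of these data known. All 10 libraries were fitted as 4 group means by the two-sided quasi-likelihood test of edgeR 4.0.16 (R 4.3.3, TMM factors, filterByExpr on group), with Benjamini-Hochberg adjustment over the 15526 tested genes in each of 5 comparisons, a pipeline tested on simulated data. Levels are CPM with TMM factors. Copies of at least 99% identity were found with blastn 2.17.0 among GENCODE M21 transcripts, which also gave gene lengths, order and strand, in place of the protein table first planned. That annotation is of GRCm38, so no gene coordinates are printed. Named were all protein and rRNA members, tRNA genes with at least 20 counts, 7 set nuclear genes and up to 6 called genes per list with the largest change, of which the text gives a part. Genes of neighbouring sequence or near-identical copies are uncertain. The alternatives were DESeq2 1.42.0, limma-voom (limma 3.58.1), other scalings and count filters, only the groups compared, a replicate block, an adjusted p under 0.01, copies added, and each library left out. Deviations from the group means correlated between -0.0721 and 0.0349 over 13 same-numbered pairs and between -0.0709 and 0.1056 over 24 other pairs. Same-numbered pairs were thus not the more alike. In groups of 2 the deviations mirror each other, which forces correlations of opposite sign. Whether equal replicate numbers mark paired libraries is therefore not decided by these values.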

Additional observations from a re-analysis of the deposited data

Results flagged for a closer look

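The response to IFN-γ differed between the lines for 2 of the 14 tested members by edgeR's quasi-likelihood test of the difference itself. Of all tested genes, 0.341% were called in that comparison. For mt-Nd5 the log2 response in OVA minus that in WT was -0.43 (adjusted p = 0.00312), and for mt-Nd6 it was -0.41 (adjusted p = 0.0140). The treated OVA libraries stood at 1709 to 1793 CPM for mt-Nd5 and 359 to 390 CPM for mt-Nd6, below every other library of the series. Both genes stood highest in untreated OVA, so the larger response also starts from a higher level. The mt-Nd6 call, unlike that of mt-Nd5, did not hold with each library left out, where its value ran from -0.47 to -0.36. The ratio of mt-Nd5 to mt-Nd6 was 4.52 to 4.82 in all 10 libraries. Without strand the pair may not be separate observations.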

How the results depend on the processing

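The counts of members called with IFN-γ, 9 in WT and 12 in OVA, stayed within 1.5 times under each alternative run (7 to 10 and 9 to 12 with a library left out). The count for the difference of responses was 2, and became 4 with limma-voom, 11 with no filter, 1 at an adjusted p under 0.01 and 1 to 5 with a library left out. It was 5 between untreated lines, and became 2 with DESeq2, 10 with no filter, 8 with only the groups compared, 2 at an adjusted p under 0.01 and 0 to 7 with a library left out. Between treated lines it was 5, and became 9 with no filter and 3 to 8 with a library left out. A replicate block gave 7 members for the difference of responses and 8 between treated lines. Whether the replicate numbers pair the libraries was not settled by the correlations, which reached 0.1056 for other-numbered pairs. The cause of these shifts was not tested. The shares of all tested genes called under each alternative are not given here, so these counts cannot be read as particular to the members. The difference of responses was not run on only the groups compared, since it uses all 4.

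Adding nuclear copies, chosen after seeing the data, raised the protein genes' share of counts to 3.03% and 2.87% in untreated and treated WT and to 3.32% and 2.84% in OVA. A denominator scaled by TMM gave 2.85% and 2.79% in WT. Among the 12 protein genes tested as deposited, dividing by no length changed 10 ranks of their as-deposited order, and adding copies changed 2. The order printed in Results has the copies added and includes mt-Nd3. At an adjusted p under 0.01, 6 and 11 of the listed nuclear genes were called between untreated and treated lines. With a library left out, 3 to 10 were called between untreated lines. The shares of all tested genes in those settings are not given here, so these counts cannot be read as particular to the lists.

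Among single members 23 changes of sign occurred, 15 of them with a library left out, all for members that were not called. With copies added mt-Atp6 became -0.024 for the WT response and 0.034 between treated lines. mt-Rnr1 in OVA became 0.0022 with at least 20 counts, 0.0027 with no filter and 0.038 with a replicate block, and mt-Co3 in OVA became -0.0017 with that block. mt-Nd4 between untreated lines became -0.0063 with 1 CPM in 5 samples, and mt-Atp8 between treated lines 0.0043 with library totals. With a library left out, responses ran from -0.034 to 0.11 for mt-Atp8 in WT, -0.14 to 0.13 for mt-Rnr1 in OVA and -0.015 to 0.068 for mt-Co3 in OVA. Differences between untreated lines ran from -0.044 to 0.42 for mt-Rnr1 and -0.035 to 0.083 for mt-Nd4l. Between treated lines they ran from -0.020 to 0.064 for mt-Nd1, -0.049 to 0.021 for mt-Atp8, -0.0064 to 0.11 for mt-Co3 and -0.060 to 0.016 for mt-Cytb. The 109 counts of the tRNA genes over 10 libraries cannot show changes of the size seen in the mRNAs. Why these genes held so few counts was not tested.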

Other observations

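Less similar nuclear copies of the mitochondrial genes held few counts. The search found 14 further matches under 99% identity, and together they held 221 counts over the 10 libraries. Of these, 159 stood on Gm13340, a copy of mt-Co1 with 97.6% identity over all 1545 bases, with 7 to 21 counts per library. A further 57 stood on Gm13341, a copy of mt-Co2 with 95.9% identity. Mtrnr2l7, a copy of part of mt-Rnr2 with 88.4% identity, had 0 counts.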
